A study of Mus musculus with 12 samples.

Results

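The 57 genes described here encode proteins that detect, signal or mend DNA damage in mouse cells. They were chosen by function, as the mismatch repair, base excision repair, homologous recombination, Fanconi anaemia and end joining genes and the damage kinases. That rule uses no measured value, but the choice was made with earlier results of these data known. All 57 were found among the 17718 genes of the count table and all 57 passed the filter on low counts, which left 13013 genes to test. The comparison sets 3 libraries of CT26 cells in which Mll3 was knocked out against 3 libraries of CT26 cells with wild-type Mll3. CT26 cells derive from a colon carcinoma of a BALB/c mouse. Mll3, now named Kmt2c, encodes a histone methyltransferase that acts at enhancers. Both genotypes were grown without drug treatment in RPMI medium with serum. They are 6 of the 12 samples of the series, which concerns Mll3 loss in tumours, and its CUT&Tag and single-cell samples are not analysed here. The knock-out columns are headed sg1, sg2 and sg3, and the labels do not say whether these are guides, clones or pools. All 6 libraries carry the same date under the batch label. No source says that the libraries of a genotype were separate cultures, and the p-values given here rest on the spread among libraries, which may be technical in part or in whole.

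Cells meet base damage, mismatches, crosslinks and broken strands in every division, and each lesion has its own repair route. Glycosylases cut out damaged bases, an endonuclease opens the strand, and a polymerase and a ligase refill it, while mismatch repair removes replication errors. Double-strand breaks are either rejoined directly or resected and copied from the sister chromatid, and the choice is steered by kinases and mediator proteins at the break. In the human colon, inherited loss of mismatch repair or of the Mutyh glycosylase is known to cause cancer.

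Total counts were 9786242, 11129754 and 10001732 in the knock-out libraries sg1, sg2 and sg3, and 13406013, 10278950 and 9559658 in wild-type libraries 1, 2 and 3. Levels are CPM, that is counts per library scaled to a common depth, with TMM factors, a correction for library composition, and 1 count was worth 0.0786 to 0.108 CPM. The targeted gene, Kmt2c, had 16.0, 11.2 and 14.8 CPM in sg1, sg2 and sg3, against 24.9, 26.2 and 25.0 CPM in wild-type libraries (log2 fold change -0.87, SE 0.129, edgeR adjusted p = 4.33e-08). Of 11 epithelial markers listed, 4 had counts, and single values of Epcam and Cdh1, which are in the list, are not reported here. The summed level of the 4 was 161 to 174 CPM in knock-out libraries and 53 to 55.5 CPM in wild-type libraries. All 3 that could be tested were higher in the knock-out. The 10 mesenchymal markers summed to 5640 to 5800 CPM in knock-out and 3931 to 3965 CPM in wild-type libraries, with 6 higher and 2 lower. Of 12 leukocyte markers 7 had counts, at 20.8 to 25.5 CPM in knock-out and 18.8 to 23.6 CPM in wild-type libraries, and of 4 tested 2 were higher and 1 lower. The log2 fold changes of these 4 ran from -1.19 to 7.17, with a median of 2.00. Ptprc, the pan-leukocyte marker, stood at 0.192 to 0.346 CPM in knock-out and 0.0786 to 0.108 CPM in wild-type libraries, where this was about 1 count. Of 6 endothelial markers 4 had counts, summing to 2.15 to 3.37 CPM in knock-out and 1.02 to 2.05 CPM in wild-type libraries, and the 1 tested was higher. The part of these markers in the repair results was not tested.

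Of the 57 repair genes, 21 rose and 7 fell in the knock-out cells, and 29 did not pass the test. The test was edgeR's quasi-likelihood test with Benjamini-Hochberg adjustment over all 13013 genes and a threshold of 0.05. Among all genes tested 66.2% were called, 33.1% higher and 33.2% lower, against 36.8% of the repair genes higher and 12.3% lower. The share of repair genes that rose was thus near the background, and fewer fell than among all genes, a difference that was not tested. In 24 repair genes every knock-out library was above every wild-type library and in 8 every one was below, while 68.7% of all tested genes showed no overlap in either direction. The median log2 fold change, knock-out over wild-type, was 0.18 over the 57 genes and 0.02 over all genes tested. The extremes were Mbd4 at 1.32 and Rbbp8 at -1.55, and 5 of the 28 called genes (17.9%) differed by at least 2-fold, against 1965 of the 8621 called among all genes (22.8%). Because these are bulk samples, fewer cells of a type and less RNA per cell cannot be told apart.

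Scaling moved the split between rises and falls. With upper-quartile scaling 32 repair genes were higher and 4 lower, against 5587 and 3183 of all 13013 genes tested. Under library size alone 31 were higher and 4 lower, against 5266 and 3440. The median of all tested genes was then 0.17 and 0.14, with 63.7% and 60.5% of all calls higher, against 49.9% with TMM factors. The repair genes had a median of 0.34 and 0.30 in those fits, so that they stood above all genes by a similar amount in each.

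**Figure D1:**
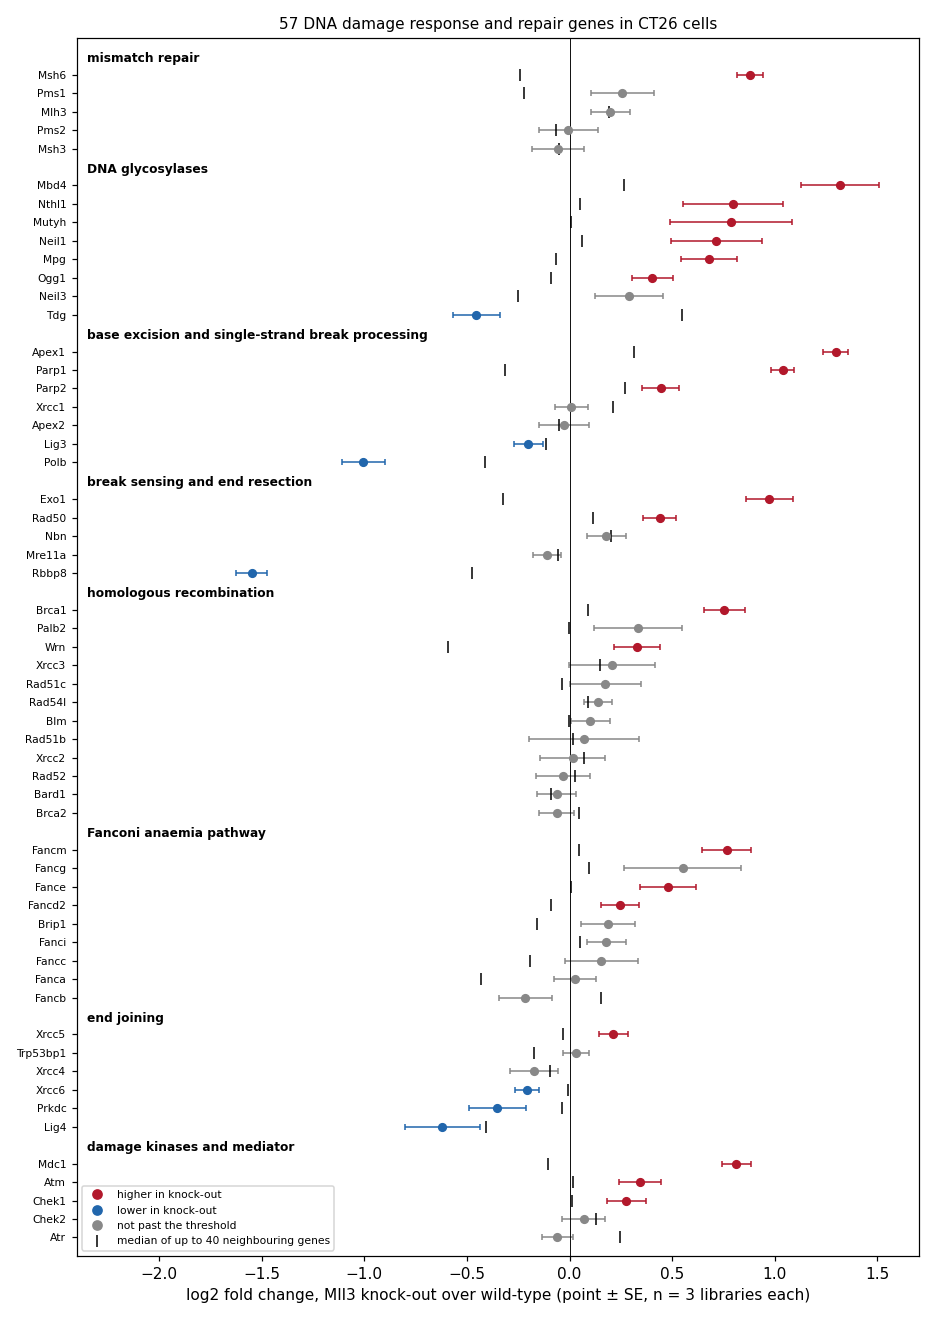
Log2 fold change, knock-out over wild-type, of the 57 repair genes by functional class (points) with the standard error (bars, n = 3 libraries per genotype) and the call by colour. Rises prevail among the glycosylases, and Rbbp8 at -1.55 and Polb at -1.0 are the lowest points.

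By total abundance, the 57 genes took 0.213%, 0.216% and 0.216% of the counts in the knock-out libraries, against 0.170%, 0.170% and 0.168% in the wild-type libraries. Their mean levels summed to 2066 CPM in the knock-out and 1766 CPM in the wild-type. The difference of 300.1 CPM was made of rises of 440 CPM and falls of -140 CPM. Parp1 added 85.6 CPM, Apex1 83.0 CPM and Msh6 49.7 CPM, and for Rbbp8 the difference was -63.9 CPM. The products of the 3 genes with the largest gains recognise or open damaged DNA.

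The start regions of some of the genes that moved most are shown for their sequence context. They are windows of 300 bases from RefSeq on build GRCm38.p6, the assembly of mm10, running 5′ to 3′ on the strand of the gene with 250 bases before its start. The first 5 belong to the called genes with the largest changes that have a window in the table, and the last to Lig4, the falling gene with the largest change that has one. Capitals mark the letters of a searched motif on either strand: CCAAT or its complement ATTGG, the E2F words TTTCCCGC and TTTGGGCG, the ETS word CCGGAAGT or its complement ACTTCCGG, and the NRF1 word GCATGCGC or its complement GCGCATGC.
Mbd4, chr6:115853292-115853591, minus strand: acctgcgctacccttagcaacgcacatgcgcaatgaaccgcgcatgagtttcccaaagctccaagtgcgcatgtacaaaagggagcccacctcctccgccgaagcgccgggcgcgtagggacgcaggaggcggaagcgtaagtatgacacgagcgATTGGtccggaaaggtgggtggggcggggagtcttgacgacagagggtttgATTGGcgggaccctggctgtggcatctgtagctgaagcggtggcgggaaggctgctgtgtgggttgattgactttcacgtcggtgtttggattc
Apex1, chr14:50924699-50924998, plus strand: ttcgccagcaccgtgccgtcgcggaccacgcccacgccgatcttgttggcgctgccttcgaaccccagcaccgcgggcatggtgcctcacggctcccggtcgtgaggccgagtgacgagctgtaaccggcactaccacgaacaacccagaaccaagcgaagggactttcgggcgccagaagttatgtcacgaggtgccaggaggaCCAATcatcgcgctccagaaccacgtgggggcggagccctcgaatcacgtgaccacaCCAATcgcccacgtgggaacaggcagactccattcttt
Parp1, chr1:180568641-180568940, plus strand: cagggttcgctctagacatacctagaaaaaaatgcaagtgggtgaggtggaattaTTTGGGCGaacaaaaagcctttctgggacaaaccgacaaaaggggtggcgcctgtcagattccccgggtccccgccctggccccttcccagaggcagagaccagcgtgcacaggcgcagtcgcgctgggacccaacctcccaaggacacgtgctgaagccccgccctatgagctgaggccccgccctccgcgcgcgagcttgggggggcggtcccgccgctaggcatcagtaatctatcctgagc
Msh6, chr17:87974800-87975099, plus strand: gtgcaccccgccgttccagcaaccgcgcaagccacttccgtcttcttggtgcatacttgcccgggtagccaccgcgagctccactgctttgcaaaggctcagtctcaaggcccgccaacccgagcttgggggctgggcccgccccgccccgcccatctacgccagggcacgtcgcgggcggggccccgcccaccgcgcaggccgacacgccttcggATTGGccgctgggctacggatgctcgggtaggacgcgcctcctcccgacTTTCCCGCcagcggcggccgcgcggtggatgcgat
Mdc1, chr17:35841248-35841547, plus strand: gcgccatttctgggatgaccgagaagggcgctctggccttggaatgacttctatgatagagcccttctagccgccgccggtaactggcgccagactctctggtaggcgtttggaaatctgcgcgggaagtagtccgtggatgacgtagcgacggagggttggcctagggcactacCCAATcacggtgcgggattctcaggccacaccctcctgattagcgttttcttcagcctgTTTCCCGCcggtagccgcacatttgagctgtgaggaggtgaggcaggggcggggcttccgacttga
Lig4, chr8:9977631-9977930, minus strand: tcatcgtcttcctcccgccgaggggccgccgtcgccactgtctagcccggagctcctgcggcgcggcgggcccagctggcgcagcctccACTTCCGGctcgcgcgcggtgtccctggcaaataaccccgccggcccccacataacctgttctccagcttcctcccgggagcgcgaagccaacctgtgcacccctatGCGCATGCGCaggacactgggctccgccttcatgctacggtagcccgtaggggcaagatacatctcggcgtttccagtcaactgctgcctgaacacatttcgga
Mbd4 and Apex1 each hold the CCAAT letters at 2 places, and Msh6 and Mdc1 hold them with the same E2F word, TTTCCCGC. In Parp1 the only match is the E2F word TTTGGGCG, 195 bases before the start. The Lig4 window shown holds the ETS word and 2 overlapping matches of the NRF1 word, and a second window of Lig4 in the table, chr8:9976262-9976561, holds no searched motif.

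Across the whole set, 53 windows were found for 47 of the 57 genes. The 5 E2F words searched were TTTCCCGC, TTTGGCGC, TTTCGCGC, TTTGCCGC and TTTGGGCG, on both strands. At least 1 of them occurred in 13 of the 53 windows (24.5%), against 4.76% of the 11975 windows of tested genes and 2.76% of all 32851 windows. The CCAAT letters were in 34 windows (64.2%), against 38.2% of the windows of tested genes, and the NRF1 word in 8 (15.1%), against 5.18%. The ETS word was in 4 windows (7.55%), against 8.36%, and the CHR letters TTTGAA in 2 (3.77%), against 12.3%. Within the repair genes, an E2F word was held by 4 of 18 windows of rising genes, 1 of 5 of falling genes and 8 of 30 of genes not called. For CCAAT the counts were 14 of 18, 2 of 5 and 18 of 30. Among all tested genes the share with an E2F word was 4.90% of the higher, 4.74% of the lower and 4.61% of those not called. A match of letters is a description of these windows and not a binding site.

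Mismatch repair was represented by 5 genes, of which only Msh6 was called (20% called, against 66.2% of all genes tested). Msh6, the MutS subunit that recognises single mispaired bases, was at 106, 111 and 110 CPM in knock-out libraries, against 61.3, 62.4 and 53.7 CPM in wild-type libraries. The groups did not overlap, and the mean was 109 ± 2.83 CPM in the knock-out and 59.1 ± 4.74 CPM in the wild-type (SD, n = 3 each; log2 fold change 0.88, SE 0.0633, edgeR adjusted p = 2.4e-18). Its counterpart Msh3, which recognises larger loops, was at 17.3, 17.1 and 20.0 CPM in knock-out and 19, 19 and 18.5 CPM in wild-type libraries, an overlap, with a log2 fold change of -0.06 (SE 0.126). Mlh3, a MutL homologue, was at 38.4, 31.9 and 35.1 CPM in knock-out and 31.9, 29.5 and 30.1 CPM in wild-type libraries, and missed the threshold (log2 fold change 0.20, edgeR adjusted p = 0.0623). It was called higher under 5 alternatives, with upper-quartile scaling (0.36), library size alone (0.32), the stricter filter (0.23), without sg2 (0.25) and with chromosome medians removed (0.21). The other MutL homologues, Pms1 and Pms2, had log2 fold changes of 0.26 and -0.01, neither called. Msh6 and its neighbour Fbxo11 end tail to tail with an overlap of 34 bases, and Fbxo11 had a log2 fold change of -0.51.

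The DNA glycosylases were the class with the highest share of rises: 6 of 8 rose, 1 fell and Neil3 was not called, with a median log2 fold change of 0.70. Rises made up 75% of this class, against 33.1% of all genes tested, a difference that was not tested. Mbd4 (ENSMUSG00000030322, chromosome 6, 115840697 to 115853400, GRCm38.p6) removes thymine or uracil mispaired with guanine at methylated sites. It was at 11.9, 11.3 and 12.7 CPM in knock-out libraries, against 5.19, 3.88 and 5.28 CPM in wild-type libraries. Its groups lay far apart, 2.49-fold higher in knock-out cells (log2 fold change 1.32, SE 0.191, edgeR adjusted p = 2.4e-08). Tdg, a glycosylase that acts on the same mispairs, moved the other way, at 21.1, 19.8 and 17.4 CPM in knock-out and 27.5, 25.6 and 26.7 CPM in wild-type libraries. It fell by 0.45 on the log2 scale (SE 0.114, edgeR adjusted p = 0.000442), without overlap. The 40 tested genes around Tdg on chromosome 10 had a median log2 fold change of 0.55, and relative to them Tdg was at -1.0.

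Of the 5 glycosylases that act on oxidised bases or on their mispairs, 4 rose, a grouping made with the values known, against 33.1% of all genes. Nthl1, which excises oxidised pyrimidines, was at 7.54, 6.40 and 6.05 CPM in knock-out and 3.77, 5.10 and 2.59 CPM in wild-type libraries (log2 fold change 0.80, SE 0.244, edgeR adjusted p = 0.00362). Neil1, with a similar range of substrates, was at 8.42, 5.88 and 7.98 CPM in knock-out and 4.40, 4.08 and 5.07 CPM in wild-type libraries (log2 fold change 0.71, SE 0.223). Both had every knock-out library above every wild-type library. Ogg1, which removes oxidised guanine, was at 36.0, 32.7 and 32.9 CPM in knock-out and 25.4, 25.1 and 26.3 CPM in wild-type libraries (log2 fold change 0.40, SE 0.0988). Mutyh, which removes adenine paired with oxidised guanine, was at 3.33, 4.50 and 4.71 CPM in knock-out and 2.44, 2.14 and 2.70 CPM in wild-type libraries, few counts with no overlap. Its call (log2 fold change 0.79, SE 0.298, edgeR adjusted p = 0.0180) was lost with DESeq2 and without sg2, sg3 or wild-type library 2, and its adjusted p over the alternatives that tested against no change ran from 0.00489 to 0.0819. Neil3 was the exception, at 12.6, 14.0 and 12.9 CPM in knock-out and 7.70, 12.3 and 12.7 CPM in wild-type libraries, where library 1 alone was low (log2 fold change 0.29, edgeR adjusted p = 0.117). Neil3 was called higher with upper-quartile scaling (0.45), library size alone (0.41), without wild-type library 3 (0.41) and with chromosome (0.65) or region medians (0.54) removed. Mpg, the glycosylase of alkylated purines, rose to 20.9, 21.7 and 19.3 CPM in knock-out libraries, against 14.9, 11.9 and 11.5 CPM in wild-type libraries (log2 fold change 0.68, SE 0.136).

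Downstream of the glycosylases, base excision and single-strand break repair split: of 7 genes 3 rose, 2 fell and 2 were not called, and 3 of the 5 called differed by at least 2-fold. The shares were 42.9% higher and 28.6% lower, against 33.1% and 33.2% of all genes tested. Apex1 (ENSMUSG00000035960, chromosome 14, 50924949 to 50927188) is the main endonuclease that opens the strand at a lost base. It was at 143, 136 and 140 CPM in knock-out libraries, against 60.4, 51.0 and 58.7 CPM in wild-type libraries. The gap was many times the spread within a genotype, 2.46-fold (log2 fold change 1.30, SE 0.0609, edgeR adjusted p = 2.2e-26). Parp1 (ENSMUSG00000026496, chromosome 1, 180568891 to 180600999) is the break sensor that builds poly(ADP-ribose), at 160, 170 and 169 CPM in knock-out and 88.6, 77.0 and 76.2 CPM in wild-type libraries. It stood 2.05-fold higher (log2 fold change 1.04, SE 0.0558, edgeR adjusted p = 9.42e-24). Polb (ENSMUSG00000031536, chromosome 8, 22628119 to 22653464) is the polymerase that fills the gap, at 19.9, 23.1 and 19.3 CPM in knock-out and 46.7, 37.5 and 40.5 CPM in wild-type libraries. The groups did not overlap, and Polb was 2.01-fold lower (log2 fold change -1.0, SE 0.103, edgeR adjusted p = 9.73e-13).

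Parp2, the second polymerase of poly(ADP-ribose) at breaks, was at 46.7, 50.9 and 48.3 CPM in knock-out and 41.3, 35.4 and 29.8 CPM in wild-type libraries (log2 fold change 0.44, SE 0.0903, edgeR adjusted p = 2.2e-05). Its neighbours on chromosome 14 had a median of 0.27, and relative to them Parp2 was at 0.17 (adjusted p = 0.0863), with adjusted p over the alternatives that tested against no change from 1.11e-07 to 0.355. Lig3, the ligase of this route, was at 54.3, 57.3 and 57.9 CPM in knock-out and 66.1, 64.2 and 64.4 CPM in wild-type libraries. That small fall (log2 fold change -0.20, SE 0.0700, edgeR adjusted p = 0.0103) was not called after upper-quartile scaling, library size alone or the median of its region removed, where the log2 fold change was -0.04, -0.08 and -0.08. Xrcc1, the scaffold that binds Lig3, was at 45.8, 50.9 and 48.1 CPM in knock-out and 48.2, 51.2 and 44.6 CPM in wild-type libraries, fully overlapping (log2 fold change 0.01, SE 0.0797). Apex2, a second endonuclease of the Apex1 kind, was not called either (log2 fold change -0.03, SE 0.121).

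**Figure D2:**
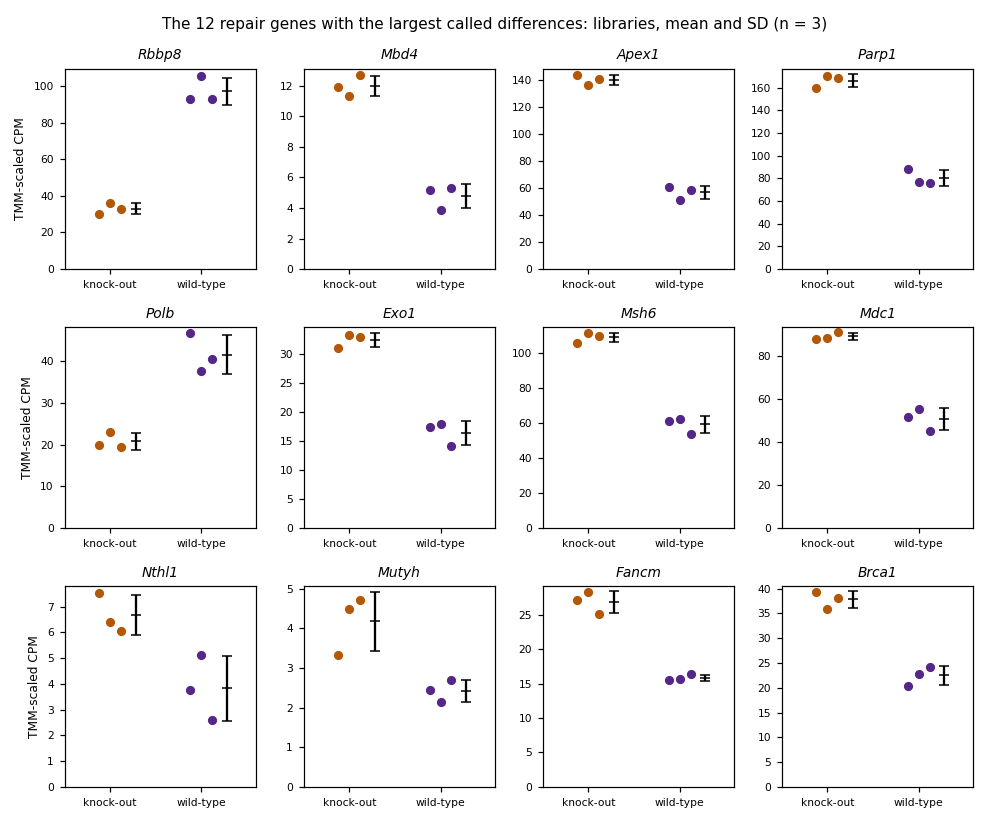
TMM-scaled CPM in each of 3 knock-out libraries (left in each panel) and 3 wild-type libraries (right) for the 12 called repair genes with the largest log2 fold changes in size, with mean and SD. No panel has overlapping groups, and Rbbp8 stood at 33.0 ± 3.10 CPM in the knock-out and 97.0 ± 7.52 CPM in the wild-type.

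Break sensing and end resection held the largest fall of the set. Rbbp8 (ENSMUSG00000041238, chromosome 18, 11633276 to 11743207) encodes CtIP, the cofactor with which the Mre11 complex starts to resect a broken end. It was at 30.0, 36.1 and 33.0 CPM in knock-out libraries, against 92.6, 106 and 92.6 CPM in wild-type libraries. The lowest wild-type library was more than 2-fold above the highest knock-out library, and the mean of the knock-out libraries was 2.93-fold lower (log2 fold change -1.55, SE 0.0755, edgeR adjusted p = 1.13e-25). Exo1, the exonuclease that extends resection, rose to 31.1, 33.3 and 33.1 CPM in knock-out libraries, against 17.4, 17.9 and 14.1 CPM in wild-type libraries (log2 fold change 0.97, SE 0.113, edgeR adjusted p = 5.25e-11). So 2 genes of successive steps of resection differed in opposite directions.

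Of the 3 subunits of the Mre11 complex, which tethers and trims broken ends, only Rad50 was called. Rad50, the ATPase subunit, was at 54.7, 63.7 and 67.8 CPM in knock-out and 44.4, 48.7 and 44.5 CPM in wild-type libraries (log2 fold change 0.44, SE 0.0788, edgeR adjusted p = 2.56e-06). Mre11a, the nuclease subunit, was at 67.4, 67.6 and 67.9 CPM in knock-out and 71.5, 77.7 and 70.0 CPM in wild-type libraries, lower in every library yet not called (log2 fold change -0.11, SE 0.0661, edgeR adjusted p = 0.138). Mre11a was called lower with chromosome medians removed (-0.15, adjusted p = 0.0467, the lowest over the alternatives run), and its sign turned with upper-quartile scaling (0.05) and library size alone (0.01). Nbn, the subunit that recruits Atm, was at 35.0, 35.6 and 34.4 CPM in knock-out and 31.5, 32.5 and 28.7 CPM in wild-type libraries (log2 fold change 0.18, edgeR adjusted p = 0.0879), also without overlap.

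Homologous recombination, which copies the sister chromatid, was the class with the fewest calls for its size: 2 of 12 genes rose and 10 were not called. That is 16.7% called, against 66.2% of all genes tested, a difference that was not tested. Brca1, a ubiquitin ligase that favours resection and recruits the recombination machinery, was at 39.4, 36.0 and 38.1 CPM in knock-out and 20.4, 22.8 and 24.3 CPM in wild-type libraries. Its groups did not overlap (mean 37.8 ± 1.71 CPM in the knock-out and 22.5 ± 1.94 CPM in the wild-type, log2 fold change 0.75, SE 0.100, edgeR adjusted p = 2.71e-09). Bard1, its obligate partner in the ligase, was at 32.7, 32.3 and 30.8 CPM in knock-out and 35.8, 30.7 and 33.3 CPM in wild-type libraries, overlapping (log2 fold change -0.06, SE 0.0948). Wrn, a RecQ helicase and exonuclease, was at 29.4, 24.2 and 25.8 CPM in knock-out and 21.2, 19.8 and 22.1 CPM in wild-type libraries (log2 fold change 0.33, SE 0.113, edgeR adjusted p = 0.00871). Without sg1 the value was 0.24 and not called (adjusted p = 0.0952, in a range from 2.58e-10 to 0.0952 over the alternatives that tested against no change). Its neighbours on chromosome 8 had a median of -0.59, and relative to them Wrn was at 0.92.

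Rad54l, a motor protein that helps the invading strand, was at 69.7, 70.3 and 77.3 CPM in knock-out and 62.9, 66.4 and 68.3 CPM in wild-type libraries, and just missed the threshold (log2 fold change 0.14, edgeR adjusted p = 0.0633). It was called higher with upper-quartile scaling (0.30), library size alone (0.26), the stricter filter (0.17) and without wild-type library 3 (0.15). Brca2, which loads the recombinase, was at 38.9, 42.2 and 40.2 CPM in knock-out and 40.3, 42.5 and 44.2 CPM in wild-type libraries (log2 fold change -0.06, SE 0.0843), overlapping. Palb2, the bridge between Brca1 and Brca2, had a log2 fold change of 0.33 with a standard error of 0.215. The recombinase paralogues Rad51b, Rad51c, Xrcc2 and Xrcc3 were at 0.07, 0.17, 0.01 and 0.21, the annealing protein Rad52 at -0.03 and the helicase Blm at 0.10, none of them called.

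In the Fanconi anaemia pathway, which unhooks crosslinks between strands, 3 of 9 genes rose, none fell and 6 were not called. The share that rose, 33.3%, was near the 33.1% of all genes tested, of which 33.2% fell. Fancm, the translocase that anchors the core complex to DNA, was at 27.2, 28.3 and 25.1 CPM in knock-out and 15.5, 15.6 and 16.4 CPM in wild-type libraries (log2 fold change 0.77, SE 0.118, edgeR adjusted p = 1.05e-07). Fance, the core subunit that contacts Fancd2, was at 17.9, 18.9 and 18.8 CPM in knock-out and 12.9, 12.1 and 15 CPM in wild-type libraries (log2 fold change 0.48, SE 0.137, edgeR adjusted p = 0.00179). Neither gene had overlapping groups. Fancd2, which is clamped on DNA after monoubiquitination, was at 40.6, 36.6 and 41.1 CPM in knock-out and 36.5, 33.4 and 29.3 CPM in wild-type libraries, all but touching (log2 fold change 0.24, SE 0.0928, edgeR adjusted p = 0.0183). That call was lost with DESeq2 (adjusted p = 0.0717) and without sg1, sg3 or wild-type library 3, and its adjusted p over the alternatives that tested against no change ran from 0.000174 to 0.148. Fanci, its partner in the clamp, was at 34.3, 37.0 and 41.2 CPM in knock-out and 30.8, 36.1 and 32.7 CPM in wild-type libraries (log2 fold change 0.18, edgeR adjusted p = 0.0864), and was called higher with upper-quartile scaling (0.34), library size alone (0.30), the stricter filter (0.21) and without wild-type library 2 (0.24). The other core subunits Fanca, Fancb, Fancc and Fancg had log2 fold changes of 0.03, -0.22, 0.15 and 0.55, and the helicase Brip1 0.19. None of these was called, and Fancg, with a standard error of 0.286, had few counts.

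End joining was the only class of the 8 with a median below 0, at -0.19: 3 of 6 genes fell, 1 rose and 2 were not called. That is 50% lower and 16.7% higher, against 33.2% and 33.1% of all genes tested. Lig4, the ligase that seals the joined ends, was at 7.34, 6.92 and 7.21 CPM in knock-out and 13.2, 8.77 and 10.8 CPM in wild-type libraries (log2 fold change -0.62, SE 0.182, edgeR adjusted p = 0.00238). The wild-type libraries were widely spread but above every knock-out library. Its call was lost without wild-type library 1 (-0.45, adjusted p = 0.0532) and with the median of its chromosome (-0.26) or region (-0.21) removed, and adjusted p over the alternatives that tested against no change ran from 0.000403 to 0.310. Prkdc, the catalytic subunit of DNA-PK, was at 13.4, 13.9 and 13.5 CPM in knock-out and 16.2, 18.3 and 17.9 CPM in wild-type libraries (log2 fold change -0.35, SE 0.137, edgeR adjusted p = 0.0213). It too lost its call without wild-type library 2 (adjusted p = 0.0652), with upper-quartile scaling (-0.19) or under library size alone (-0.23), its adjusted p running from 0.0171 to 0.206 over the alternatives that tested against no change.

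The Ku subunits, which form the ring that first binds a broken end, moved apart by small amounts. Xrcc6, the smaller subunit, was at 87.2, 92.5 and 87.7 CPM in knock-out and 101, 103 and 105 CPM in wild-type libraries (log2 fold change -0.21, SE 0.0570, edgeR adjusted p = 0.00128). With upper-quartile scaling it was at -0.05 and under library size alone at -0.09, neither called. Xrcc5, the larger subunit, was at 68.5, 69.9 and 71.6 CPM in knock-out and 62.4, 63.4 and 55.0 CPM in wild-type libraries (log2 fold change 0.21, SE 0.0695, edgeR adjusted p = 0.00608). It was not called without wild-type library 3 (0.14, adjusted p = 0.0721), the highest of the alternatives that tested against no change, whose lowest was 1.00e-06. Trp53bp1, the mediator that holds back resection, was at 79.6, 88.0 and 83.3 CPM in knock-out and 83.2, 77.3 and 85.3 CPM in wild-type libraries, overlapping (log2 fold change 0.03, SE 0.0622), and was called higher with upper-quartile scaling (0.19), library size alone (0.15) and region medians removed (0.21). Xrcc4, the scaffold of Lig4, was at -0.17 (SE 0.118) and not called.

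Among the damage kinases and their mediator, 3 of 5 genes rose and 2 were not called. Rises made up 60% of this small class, against 33.1% of all genes tested. Mdc1, the mediator that binds phosphorylated histone at a break, was at 88.3, 88.4 and 91.2 CPM in knock-out and 51.7, 55.3 and 45.3 CPM in wild-type libraries. The mean was 89.3 ± 1.65 CPM in the knock-out and 50.8 ± 5.06 CPM in the wild-type, with no overlap (log2 fold change 0.81, SE 0.0692, edgeR adjusted p = 1.54e-15). Atm, the kinase of double-strand breaks, was at 33.9, 31.9 and 33.5 CPM in knock-out and 24.0, 29.7 and 24.7 CPM in wild-type libraries (log2 fold change 0.34, SE 0.102, edgeR adjusted p = 0.00255). Atr, the kinase of stalled forks, was at 47.7, 49.8 and 51.0 CPM in knock-out and 48.7, 53.2 and 53.2 CPM in wild-type libraries, overlapping (log2 fold change -0.06, SE 0.0770). Its effector Chek1 was at 41.9, 38.7 and 34.4 CPM in knock-out and 33.2, 29.2 and 32.3 CPM in wild-type libraries (log2 fold change 0.28, SE 0.0940, edgeR adjusted p = 0.00852). Chek1 lost its call without sg1 (0.20, adjusted p = 0.0973) and without wild-type library 2 (adjusted p = 0.0590), in a range from 8.89e-05 to 0.0973 over the alternatives that tested against no change. Chek2, the effector of Atm, was at 0.07 (SE 0.104).

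The 29 genes not called had log2 fold changes from -0.22 to 0.55 with a median of 0.07, 19 of them above 0 and 10 below. Their standard errors ran from 0.0622 to 0.286, so the larger values in this range belong to thinly counted genes, and a missed threshold does not show equal levels. Of the 28 called genes, 18 kept the call under each of the 15 other settings run apart from the test against a 1.5-fold change. Against that fold, 6 rises and 2 falls were called: Msh6, Mbd4, Apex1, Parp1, Exo1 and Mdc1 higher, and Polb and Rbbp8 lower. Of all 13013 genes tested, 1448 were called higher and 1154 lower against it.

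For 13 pairs of genes whose products are partners or relatives, chosen with the values known, the ratio of counts within a library was compared, which does not depend on scaling but does depend on gene length, so only its change is read. Knock-out and wild-type ratios did not overlap in 9 pairs and overlapped in 4, a split that the choice of pairs fixes in part. The share among other pairs of genes was not counted, and 68.7% of all single genes tested showed no overlap. With 3 libraries each, the exact two-sided permutation test cannot go below p = 0.1 (0.144 adjusted over the 13 pairs), which all 9 reached. The ratio Apex1 to Apex2 was 7.14, 7.30 and 6.51 in knock-out and 3.00, 2.62 and 2.69 in wild-type libraries, a log2 difference of 1.33. For Msh6 to Msh3 it was 6.10, 6.49 and 5.49 in knock-out and 3.22, 3.29 and 2.90 in wild-type libraries, a log2 difference of 0.94. Both gaps were wide beside the spread within a genotype.

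Brca1 to Bard1 was 1.20, 1.12 and 1.24 in knock-out and 0.571, 0.744 and 0.728 in wild-type libraries (log2 difference 0.81). Parp1 to Parp2 was 3.42, 3.35 and 3.49 in knock-out and 2.15, 2.18 and 2.56 in wild-type libraries (0.58). Mre11a to Rad50 was 1.23, 1.06 and 1.00 in knock-out and 1.61, 1.59 and 1.57 in wild-type libraries (-0.54), and Nbn to Rad50 changed less (-0.25). In end joining, Xrcc5 to Xrcc6 was 0.786, 0.756 and 0.816 in knock-out and 0.616, 0.615 and 0.526 in wild-type libraries (0.43), and Prkdc to Xrcc5 was lower in the knock-out (-0.57). Pairs that share Rad50 or Xrcc5 share its counts. The remaining non-overlapping pair was Xrcc1 to Lig3 (0.21). Brca2 to Palb2, Chek1 to Atr and Chek2 to Atm overlapped (exact permutation p = 0.2, two-sided, 0.217 adjusted), as did Fancd2 to Fanci (0.08, p = 0.6 by the same exact permutation).

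**Figure D3:**
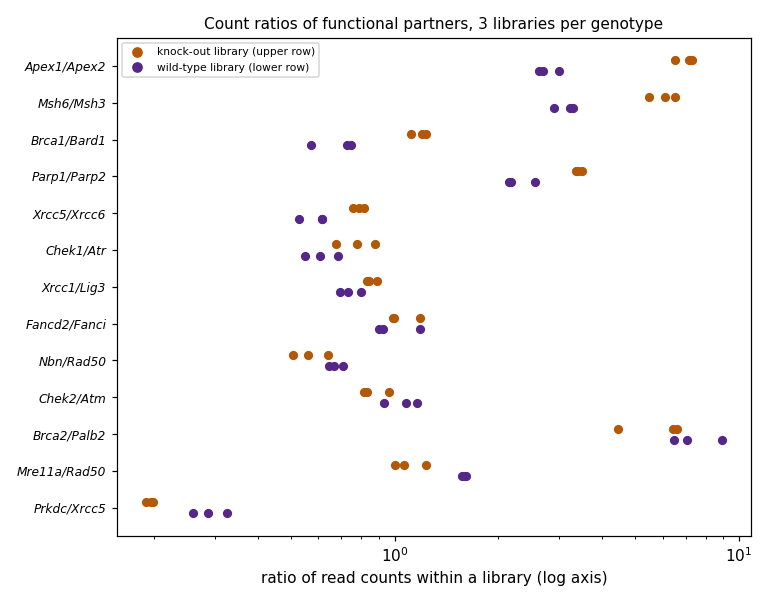
Ratio of read counts of 2 functional partners within each library, on a log axis, for 13 pairs, with 3 knock-out libraries in the upper row and 3 wild-type libraries in the lower row of each pair. Apex1 to Apex2 and Msh6 to Msh3 show the widest gaps, at log2 differences of 1.33 and 0.94.

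Whole chromosomes differed in level between the genotypes, so each gene was also set against the median of up to 40 tested genes around it. Chromosome medians of the log2 fold change were -0.36 on chromosome 8, -0.32 on chromosome 18, 0.36 on chromosome 10 and 0.35 on chromosome 14. All 4 repair genes of chromosome 17 rose (Msh6, Mdc1, Nthl1 and Fance) while its median was 0.02, and both of chromosome 14 rose (Apex1 and Parp2). None was called of the 4 on chromosome 5, the 4 on chromosome 7 and the 3 on chromosome 13. The share of all genes called on each chromosome is not given here. Of 5 repair genes on chromosome 8, Polb and Lig4 fell and Wrn rose. Of the 21 rising genes, 12 lay among neighbours with a median above 0 and 9 below, and of the 7 falling genes 1 lay above and 6 below. Of the 29 genes not called, 14 lay above and 15 below, and a link between call and region was not tested.

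The values with the largest changes remained large relative to their surroundings. Rbbp8 was at -1.07 after its region's median of -0.48 was removed, Apex1 at 0.98 after 0.31, and Mbd4 at 1.05 after 0.26. Polb was reduced to -0.59 by its region's -0.41. Where the region went the other way the values grew: Parp1 stood at 1.35 against a region at -0.31, Exo1 at 1.30 against -0.32 and Msh6 at 1.12 against -0.24. With region medians removed, 25 of the 57 genes were called higher and 8 lower, against 4072 and 4277 of all 13013 genes tested. The difference was not tested. Pms1 (0.48), Neil3 (0.54), Fanca (0.46), Brip1 (0.35) and Trp53bp1 (0.21) were then called higher, and Xrcc1 (-0.20), Fancb (-0.37) and Atr (-0.31) lower. Parp2, Lig3 and Lig4 were no longer called.

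**Figure D4:**
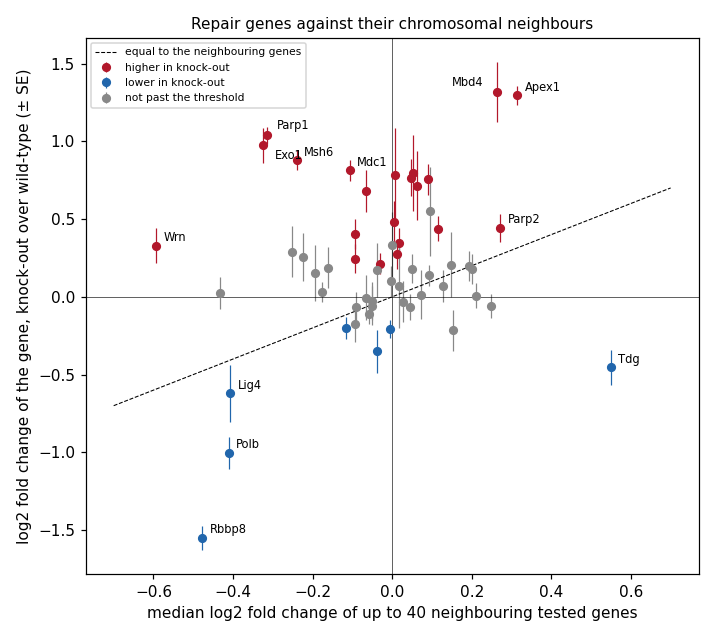
Log2 fold change of each repair gene (vertical axis, with SE) against the median log2 fold change of up to 40 neighbouring tested genes (horizontal axis). Parp1, Exo1, Msh6 and Wrn stand high above regions with medians below 0, and Tdg stands at -0.45 in a region at 0.55.

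Several repair genes adjoin another gene head to head, 15 such pairs with a gap of at most 1000 bases. Both genes of the pair rose for Apex1 with Osgep (0.51, 55 bases between them) and for Fancm with Fkbp3 (0.87, 171 bases), and both fell for Lig4 with Abhd13 (-0.78, 36 bases). In 4 pairs the repair gene rose while the neighbour was not called: Mutyh with Toe1 (0.13), Nthl1 with Tsc2 (0.00, 3 bases), Brca1 with Nbr1 (0.08, 151 bases) and Atm with Npat (0.03, 60 bases). In 1 pair the repair gene fell and the neighbour was not called. Where the repair gene was not called, the neighbour rose in 2 pairs, fell in 3 and was not called in 2. No head to head pair was called in opposite directions, but both genes were called only in the pairs of Apex1, Fancm and Lig4. Adjoining pairs with an orientation not read here could not be placed among these, and some were called in opposite directions. They were Prkdc with the replication helicase gene Mcm4 (-0.35 and 0.85, 43 bases), Wrn with Purg (0.33 and -0.68, 75 bases) and Fancd2 with Emc3 (0.24 and -0.17, 1 base). The spans of 18 repair genes overlap a neighbour's, and with a strand setting not given in the sources used here, reads in the overlaps are of uncertain origin.

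Other genes of the repair network, 92 tested genes outside the 57, had 36 higher and 26 lower calls and a median log2 fold change of 0.15. Together 67.4% of them were called, near the 66.2% of all genes tested, with 39.1% higher and 28.3% lower against 33.1% and 33.2%. Nucleotide excision repair, which removes bulky lesions, had 5 higher and 9 lower of 23. Translesion synthesis, which copies past lesions, had 9 higher and 2 lower of 14, with the fork remodeller Hltf at 61.8, 59.9 and 55.3 CPM in knock-out and 32.3, 32.7 and 30.7 CPM in wild-type libraries. The checkpoint clamp and fork protection genes had 9 higher and 3 lower of 13. There Timeless, a fork protection factor, was at 50.6, 53.8 and 55.9 CPM in knock-out and 20.5, 19 and 20.2 CPM in wild-type libraries (log2 fold change 1.42, SE 0.0928). Rif1, which acts with Trp53bp1 against resection, was at 102, 100 and 102 CPM in knock-out and 193, 178 and 171 CPM in wild-type libraries (log2 fold change -0.84, SE 0.0515), in a list of 13 ubiquitin signalling genes with 4 higher and 4 lower. Rif1 and Rbbp8, which act on resection in opposite ways, both fell, while Trp53bp1 overlapped between the genotypes.

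Accessory end joining had 4 higher and 4 lower of 11. Structure-specific nucleases and crosslink factors had 4 higher and 4 lower of 16, with Dclre1b, a nuclease, at -0.65 (SE 0.0982). Of the direct reversal genes, the demethylase Alkbh2 rose at very low counts, at 2.74, 1.56 and 2.59 CPM in knock-out and 0.786, 0.306 and 0.970 CPM in wild-type libraries. Many repair genes are transcribed with S phase, and of 42 S phase and replication genes 29 were higher and 5 lower. That is 69.0% higher and 11.9% lower, against 33.1% and 33.2% of all genes tested. Their summed level was 4266 to 4308 CPM in knock-out and 3453 to 3570 CPM in wild-type libraries. Mcm7, a subunit of the replicative helicase, had a log2 fold change of 0.70 (SE 0.0422). Genes of G2 and mitosis had 9 higher and 9 lower of 28, with Mki67, a proliferation marker, at -0.77 (SE 0.0448), and summed to 5062 to 5231 CPM in knock-out and 5125 to 5391 CPM in wild-type libraries. The part of the cell cycle in the repair results was not tested.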

How the data were processed

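The values are read counts per Ensembl gene for 6 polyA RNA-seq libraries, deposited by the authors as 1 table without normalization. Every gene in it is above 0 in at least 3 libraries. Tools named per the submitters' processing notes are fastp, STAR and HTSeq, beside Bowtie2, deepTools and SEACR, with build mm10 and no role stated. Not given in the sources used here are the annotation and the strand setting. The knock-out columns carry no replicate number of the labels and were assigned to their group only.

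Genes were kept with filterByExpr (minimum count 10, minimum total 15), scaled with TMM and fitted with edgeR 4.0.16 (quasi-likelihood, robust, limma 3.58.1, R 4.3.3), with p-values adjusted over all genes tested. Standard errors were derived from the F statistic. The procedure was tested on simulated counts. Symbols were found for 17650 identifiers, and RefSeq positions on GRCm38.p6 by symbol for 11921 tested genes. Depth was 9559658 to 13406013 counts per library, and the biological coefficient of variation was 5.03%. Library pairs of a genotype differed by 2.13 to 3.13 times the variance of counting, so none was merged.

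The genes, classes and lists were chosen with earlier results of these data known. Values in every library were due for the 4 largest calls and the most abundant gene not called in each class, and for Kmt2c. Of each other repair or cell cycle list the 2 calls with the smallest p were due, and some of these are not reported here. Values of other genes named, the pairs and the neighbours were chosen after their values were seen. Alternatives were RLE, upper-quartile and library-size scaling, no filter, a stricter filter, DESeq2 1.42.0, voom, a test against a 1.5-fold change, each library left out, chromosome medians removed and, chosen after seeing the data, region medians removed.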

Additional observations from a re-analysis of the deposited data

How the results depend on the processing

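Against a 1.5-fold change 1448 genes were called higher and 1154 lower, and of the repair genes 6 and 2. Upper-quartile scaling gave 32 repair genes higher and 4 lower, against 5587 and 3183 of all 13013 genes tested. Library size alone gave 4 repair genes lower, against 3440 of all genes. The median log2 fold change of the 57 genes was 0.18. Upper-quartile scaling made it 0.34, library size alone 0.30; it was 0.21 with the stricter filter, 0.14 with chromosome medians removed and 0.21 with region medians removed. With each library left out in turn it ran from 0.14 (without wild-type library 3) to 0.19, with 19 to 21 repair genes higher and 6 to 8 lower. No called repair gene changed sign. Signs under every setting were followed for the called repair genes, the most abundant gene not called in each class and the chosen genes of other lists. Among these, signs turned for genes not called and for 1 called gene of another list. With region medians removed, Nbn, Bard1, Chek2, Xrcc2, Pms2 and Apex2, none of them called, also changed sign. Xrcc1 was at -0.00828 without a filter, -0.00332 with DESeq2, -0.0748 with chromosome medians removed and -0.20 with region medians removed, and from -0.0494 (without wild-type library 3) to 0.0494 with a library left out, also below 0 without sg2 (-0.0439). Mre11a was at 0.0476 with upper-quartile scaling and 0.0117 under library size alone, and Atr at 0.0979 and 0.0621. Trp53bp1 ran from -0.0204 (without sg2) to 0.0542 with a library left out, and was at -0.0136 without wild-type library 2. The log2 ratio Fancd2 to Fanci was -0.00370 without sg1, and Ube2n, of the ubiquitin signalling list, called higher at 0.30, was at -0.0594 with chromosome medians removed. The cause was not tested. No paired analysis was possible because the knock-out columns carry no replicate number of the labels. Depth limits the genes with few counts, such as Mutyh, Fancg and Rad51b.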
